A study of Mus musculus with 60 samples.

Results

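The genes described here are 10 thermogenic genes of brown and beige fat, namely Ucp1, Dio2, Cox7a1, Cox8b, Ppargc1a, Prdm16, Adrb3, Kcnk3, Ebf2 and Zic1. They were taken by symbol from the 54232 gene IDs of a raw count table, and all 10 were found. They were followed in the 40 fat libraries of a mouse study of 60 libraries, 20 from visceral fat and 20 from subcutaneous fat. Mice ate a Western diet with 42% fat or a control chow with 11% fat for 12 weeks, each with or without NaKtide, a peptide from the Na,K-ATPase that blocks Src signalling. A transgene made the NaKtide after induction by doxycycline, at 300 mg/kg of the same chow. The groups in each depot are thus Western + NaKtide, Western, control + NaKtide and control, with 5 libraries each. The sources used here give no strain, sex or age, no promoter for the transgene, and no genotype or doxycycline exposure for the mice without NaKtide. Every difference with NaKtide therefore includes any effect of doxycycline or of the genotype, and these cannot be told apart. The sources used here do not say that each library came from a separate mouse, so p-values measure the spread between these libraries.

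Brown adipocytes burn fuel for heat, and beige adipocytes are cells of white depots that can switch to the same programme in the cold. Noradrenaline reaches the fat cell through Adrb3, a beta-adrenergic receptor concentrated in rodent adipocytes, and raises cyclic AMP. That signal switches on Ucp1, the inner-membrane protein that lets protons leak past ATP synthase, and Dio2, the deiodinase that makes active thyroid hormone inside the cell. Ppargc1a is a coactivator that drives mitochondrial biogenesis, and Prdm16 and Ebf2 are transcription regulators that set brown and beige identity. Cox7a1 and Cox8b are tissue forms of cytochrome c oxidase subunits that brown fat shares with heart and skeletal muscle. Kcnk3 is a background potassium channel of brown and beige adipocytes, and Zic1 is a transcription factor that marks classical brown fat. In mice subcutaneous white fat takes up the beige programme more readily than visceral fat.

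In GRCm38 with GENCODE M21 the genes lie as follows. Ucp1 (ENSMUSG00000031710) is on chromosome 8, 83290352 to 83298452, and Adrb3 (ENSMUSG00000031489) on chromosome 8, 27225776 to 27250616. Cox7a1 (ENSMUSG00000074218) is on chromosome 7, 30184144 to 30186078, and Cox8b (ENSMUSG00000025488) on chromosome 7, 140898945 to 140900446. Kcnk3 (ENSMUSG00000049265) is on chromosome 5, 30588170 to 30625271, and Ppargc1a (ENSMUSG00000029167) on chromosome 5, 51454250 to 51567726. Prdm16 (ENSMUSG00000039410) is on chromosome 4, 154316125 to 154636873, Ebf2 (ENSMUSG00000022053) on chromosome 14, 67233292 to 67430918, Dio2 (ENSMUSG00000007682) on chromosome 12, 90724552 to 90738438, and Zic1 (ENSMUSG00000032368) on chromosome 9, 91358058 to 91365810. Exons of 6 of them share bases with a gene on the opposite strand, 839 bases for Adrb3 with Gm45470, 424 for Ebf2 with Gm10860 and 229 for Kcnk3 with Gm9899, and 60 to 109 for Zic1, Dio2 and Prdm16. The library kit keeps strand, but the strand setting of the count is not given in the sources used here, so reads in those bases may belong to either gene.

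RefSeq promoters on GRCm38.p6 were at hand for 7 of the 10 genes. Those of Ucp1, Cox7a1 and Cox8b are shown, since these 3 genes carry the largest differences between depots below. Each is the 250 bases before the transcript start, 5′ to 3′ on the strand of the gene. Capitals mark a nuclear receptor motif (AGGTCA, or TGACCT on the other strand) or an E-box core (CAGCTG, the same on both strands).
Ucp1, chr8:83290098-83290347, plus strand: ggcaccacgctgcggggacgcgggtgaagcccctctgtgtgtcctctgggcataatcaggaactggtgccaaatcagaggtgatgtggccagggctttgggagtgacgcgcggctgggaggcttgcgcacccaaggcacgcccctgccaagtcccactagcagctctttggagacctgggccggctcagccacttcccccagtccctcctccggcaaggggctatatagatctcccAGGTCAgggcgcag
Cox7a1, chr7:30183921-30184170, plus strand: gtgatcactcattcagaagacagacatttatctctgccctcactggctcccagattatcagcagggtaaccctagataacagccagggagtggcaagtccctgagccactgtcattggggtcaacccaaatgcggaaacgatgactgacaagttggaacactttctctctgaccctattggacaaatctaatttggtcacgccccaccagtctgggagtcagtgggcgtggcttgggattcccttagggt
Cox8b, chr7:140900447-140900696, minus strand: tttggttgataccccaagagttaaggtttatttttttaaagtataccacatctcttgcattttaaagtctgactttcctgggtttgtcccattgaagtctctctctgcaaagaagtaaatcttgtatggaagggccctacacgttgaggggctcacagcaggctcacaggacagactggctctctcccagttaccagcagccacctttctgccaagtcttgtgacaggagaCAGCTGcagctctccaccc
The motif in Ucp1 starts 14 bases before the transcript start, and 14.02% of 32851 RefSeq mouse promoters of the same length hold one. The E-box core in Cox8b starts 19 bases before the start, and 13.0% of promoters hold one. The Cox7a1 window holds neither. A cyclic AMP response element, TGACGTCA on either strand, was present in 1.55% of promoters and among the 7 genes in that of Dio2 alone, 95 bases before the start.

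Depth was 4187968 to 9493819 counts per library in visceral and 3485216 to 9784337 counts in subcutaneous fat. Marker genes of other tissues were uneven between libraries, and their sums are given as CPM, counts scaled to library depth over the 40 fat libraries. The 15 skeletal muscle genes summed to 69.5 to 4271 CPM in Western + NaKtide, 89.5 to 270.4 in Western, 125 to 250490 in control + NaKtide and 8466 to 62097 in control subcutaneous fat, against 46.5 to 1032 in visceral fat. The 15 epididymis and testis genes, called tract genes here, passed 1000 CPM in 6 visceral libraries, namely Western + NaKtide 2 and 5, control + NaKtide 1 and control 3, 4 and 5. The 10 adipocyte genes summed to 928 to 34691 CPM in visceral and 12338 to 33478 CPM in subcutaneous fat, with the lowest value in visceral control 5. A library labelled visceral and another labelled subcutaneous went against their depot labels. Mesothelial genes, which belong to the lining of visceral fat, summed to 3.51 CPM in the library labelled visceral Western + NaKtide 1, against 35.8 to 346 in the other visceral libraries. They summed to 90.4 CPM in the library labelled subcutaneous Western + NaKtide 1, against 0.712 to 24.3 in the other subcutaneous libraries. Tbx15, a transcription factor of subcutaneous fat, had 26.2 CPM in the first of these and 0.136 CPM in the second, beside at most 3.23 CPM in the other visceral and at least 9.34 CPM in the other subcutaneous libraries. These genes were picked for this check after their values were seen, and several results with NaKtide on Western diet are also given without these libraries.

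Per transcript length, on the scale of the FPKM table that the authors deposited, Cox8b and Adrb3 had the highest medians in both depots, and Dio2 and Zic1 were low. In subcutaneous fat the median over 20 libraries was 249 FPKM for Cox8b, 48.9 for Adrb3, 27.2 for Cox7a1 and 15.1 for Kcnk3. It was 1.39 FPKM for Prdm16, 1.22 for Ebf2, 0.717 for Ucp1 (which reached 82.5 FPKM in Western 5 and 39.8 FPKM in control 3), 0.491 for Ppargc1a, 0.155 for Dio2 and 0 for Zic1. Neighbours in this order overlapped in range, except that every Kcnk3 value lay above the highest Prdm16 value of 2.46 FPKM. In visceral fat the medians were 40.8 FPKM for Adrb3, 34.2 for Cox8b, 7.80 for Cox7a1, 7.35 for Kcnk3, 1.02 for Ebf2 and 0.788 for Prdm16. There Ppargc1a had a median of 0.291 FPKM, Dio2 0.0854, Ucp1 0.0602 and Zic1 0.

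**Figure D1:**
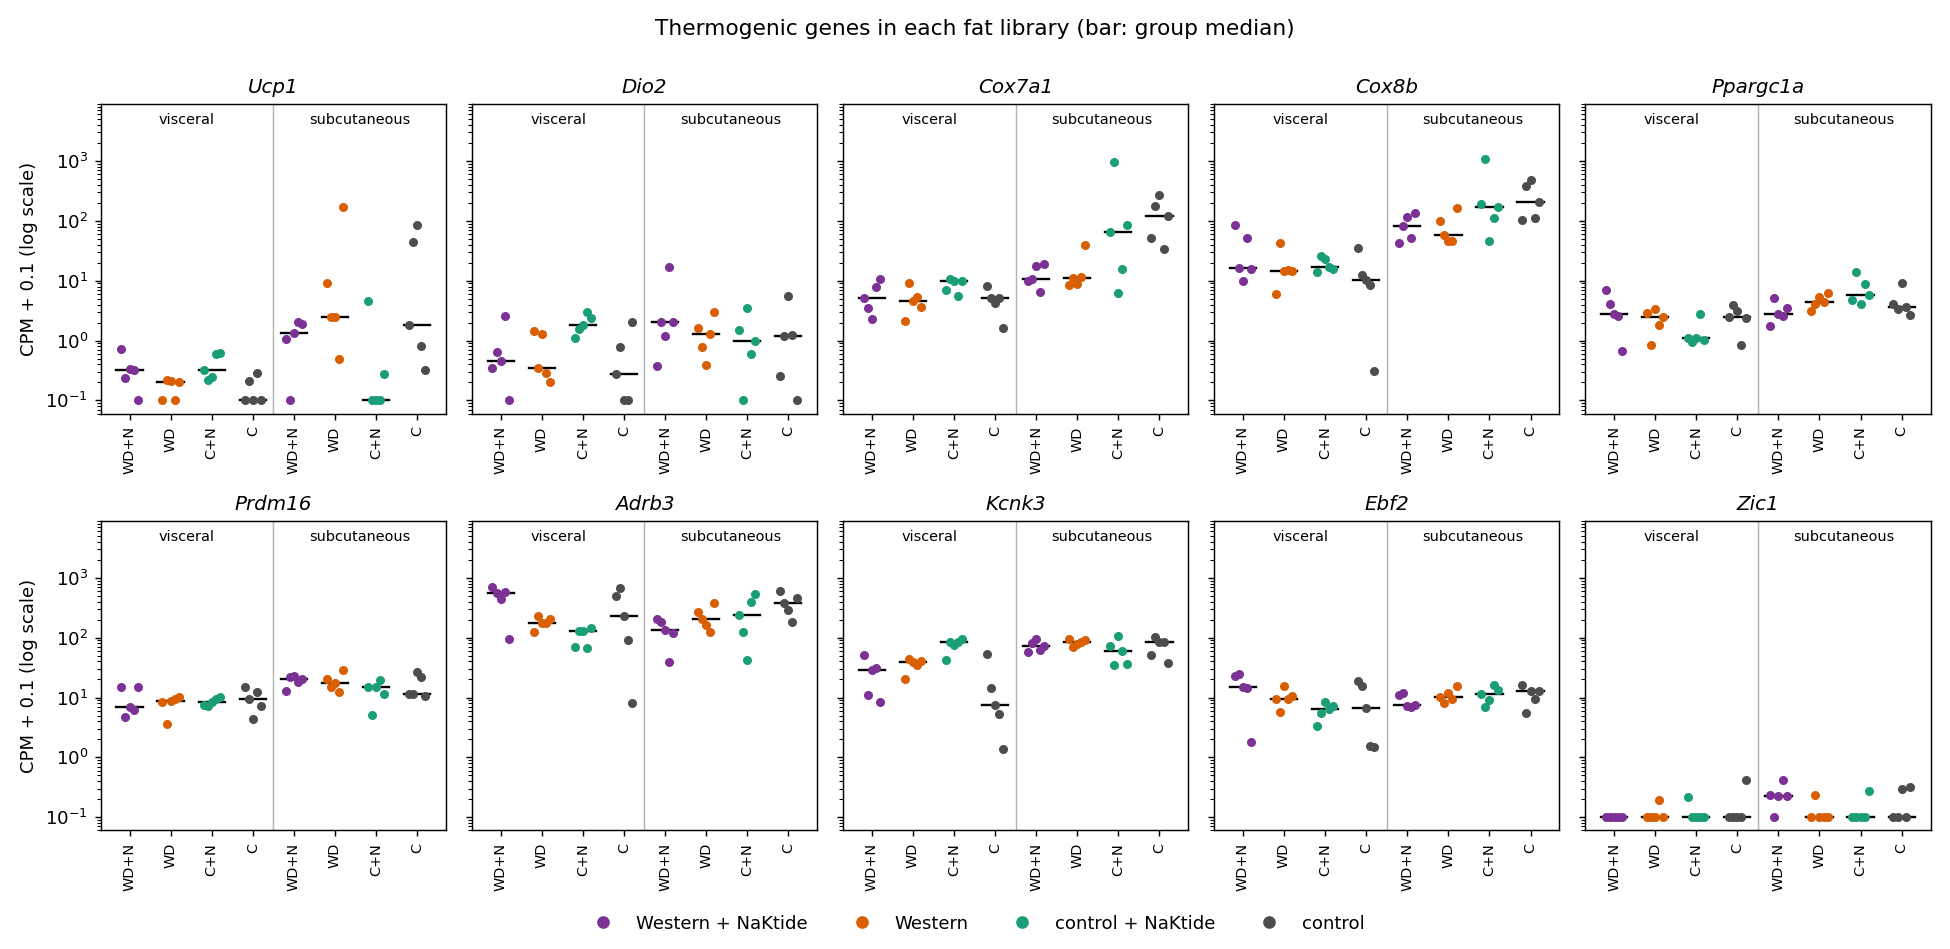
Level of each thermogenic gene in each of the 40 fat libraries, as CPM + 0.1 on a log axis, by group within visceral and subcutaneous fat (WD Western, C control, N NaKtide; points are libraries, bars group medians). Ucp1 reached 170.2 CPM in a subcutaneous library and stayed at or under 0.627 CPM in visceral fat, and Zic1 stayed at or under 0.326 CPM throughout.

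Zic1 was close to absent, with 5 counts over the 20 visceral and 9 over the 20 subcutaneous libraries. It was at 0 in 17 visceral and 12 subcutaneous libraries, and it was not tested. The share of the tissue forms against the ubiquitous forms of the same subunits differed between groups, and it was small in visceral fat. The ratio of Cox7a1 to Cox7a2 FPKM had a median of 0.0413 in Western + NaKtide, 0.0745 in Western, 0.106 in control + NaKtide and 0.0360 in control visceral fat. In subcutaneous fat it was 0.105 in Western + NaKtide, 0.101 in Western, 0.396 in control + NaKtide and 0.888 in control, with highest values of 3.67 in control + NaKtide and 1.56 in control. The ratio of Cox8b to Cox8a ran likewise, with medians of 0.243, 0.157, 0.410 and 0.510 in the same 4 subcutaneous groups, and of 0.0260 to 0.0719 in the visceral groups. Thus the 2 control-diet subcutaneous groups, which also hold the most muscle transcripts, had the highest share of both tissue forms.

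The first comparison asks where the thermogenic programme lay, in visceral or in subcutaneous fat. Prdm16 was lower in visceral fat on Western diet, and Cox7a1, Cox8b and Kcnk3 were lower on control diet. Ucp1 counts were also far lower in visceral fat, but Ucp1 passed the low-count filter of the 40-library fit only through subcutaneous libraries, so its levels between depots are given as a description. Of the 8 genes that passed the filter within each depot, 1 was called lower on Western diet at an edgeR adjusted p under 0.05. The background was 2.08% of all 17788 genes called in either direction and 1.05% lower, or 2.03% and 1.18% of the 14988 genes that passed in both depots. On control diet 3 of the 8 were called lower, where 27.2% of all genes were called and 7.33% were lower, or 20.8% and 7.65% of those that passed in both depots. The median log2 fold change of the 8 was -1.19 on Western diet, beside -0.05 over the genes that passed in both, and -1.01 on control diet, beside 0.05. None of the 8 was called higher in visceral fat, DESeq2 called 2 of them on Western and 3 on control diet, and 5 and 4 had an unadjusted p under 0.05. Markers of other cells differed between the depots as well. The 8 mesothelial genes passed the filter only through visceral libraries, so their sums are given as a description. On Western diet they were 93.2 to 237 CPM in visceral and 1.11 to 1.96 CPM in subcutaneous fat. On control diet they were 43.1 to 330 CPM and 1.56 to 5.19 CPM. Of 8 macrophage genes none was called on Western diet by edgeR, with 7 at an unadjusted p under 0.05 and a median log2 fold change of 1.02. On control diet 7 macrophage genes were called lower in visceral fat, at a median log2 fold change of -1.13. Their part in the depot results was not tested.

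On Western diet Ucp1, the uncoupling protein itself, had 0, 0.123, 0.109, 0 and 0.104 CPM in visceral and 8.92, 2.37, 2.37, 0.398 and 170.2 CPM in subcutaneous libraries. The groups did not overlap, and replicate 5 of the subcutaneous group stood far above the rest. The visceral group holds 3 Ucp1 counts and the subcutaneous group 1582, a ratio of 602 between subcutaneous and visceral fat (counting interval 206 to 2924, with no spread between animals in it). Without subcutaneous Western 5 the subcutaneous count was 108 and the ratio 52.2 (17.4 to 257), so that 1 library sets the size. Prdm16, which sets beige identity, had 8.46, 3.57, 8.69, 9.44 and 9.90 CPM in visceral against 20.2, 15.2, 17.5, 12.1 and 29.0 CPM in subcutaneous libraries. Here too each visceral library lay below each subcutaneous one. The log2 fold change was -1.27 ± 0.35 (SE, adjusted p = 0.045), and leaving out any single one of the 10 libraries moved the adjusted p past the threshold, to 0.054 to 0.15.

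Cox8b and Kcnk3 also did not overlap between depots on Western diet, without passing the test. The share of all genes without overlap between depots was not counted on either diet. Missing overlap therefore describes these libraries and sets no gene apart from the rest. Cox8b had 5.79, 42.6, 14.7, 15.1 and 14.6 CPM in visceral against 98.6, 59.0, 45.9, 46.5 and 165 CPM in subcutaneous fat (log2 fold change -2.22 ± 0.75, adjusted p = 0.11). Kcnk3 had 20.5, 44.6, 39.0, 35.4 and 40.5 CPM in visceral against 95.2, 70.7, 78.3, 83.4 and 90.7 CPM in subcutaneous fat (-1.28 ± 0.51, adjusted p = 0.16). Without the 6 visceral libraries rich in tract genes, of which none is in this contrast but which share its estimate of spread, Cox8b was called at -2.22 ± 0.68 (adjusted p = 0.03) and Kcnk3 at -1.28 ± 0.30 (adjusted p = 0.0079). Cox8b was also called without visceral Western 2 (-2.78 ± 0.83, adjusted p = 0.037). Cox7a1 differed by -1.73 ± 0.79 (adjusted p = 0.22), Ppargc1a by -1.12 ± 0.48 (adjusted p = 0.19), Dio2 by -1.12 ± 1.05 (adjusted p = 0.58), Adrb3 by -0.38 ± 0.62 (adjusted p = 0.77) and Ebf2 by -0.16 ± 0.49 (adjusted p = 0.88). In the Western groups the 15 muscle genes summed to 80.1 to 596 CPM in visceral and 89.5 to 270.4 CPM in subcutaneous fat. None of these 15 was called between depots. The 15 tract genes, which passed the filter only through visceral libraries, summed to 0.567 to 590 CPM in visceral and 0.115 to 1.25 CPM in subcutaneous fat. In bulk tissue fewer cells of a type and less RNA per cell cannot be told apart.

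On control diet both cytochrome c oxidase subunits were lower in visceral fat. Cox7a1 had 8.07, 5.14, 4.07, 4.95 and 1.50 CPM in visceral against 51.6, 180.0, 274, 33.2 and 119 CPM in subcutaneous fat, without overlap (log2 fold change -4.76 ± 0.89, adjusted p = 0.0015). Cox8b had 35.0, 12.6, 10.1, 8.25 and 0.215 CPM against 105, 388, 487, 113 and 204 CPM, also without overlap (-4.28 ± 0.83, adjusted p = 0.0019). Beside this, the 15 muscle genes, of which 12 passed the filter within visceral fat, had sums of 46.5 to 218 CPM there. In subcutaneous fat their sums were 8466 to 62097 CPM. With the log2 muscle sum as a covariate Cox7a1 differed by -0.35 ± 0.93 (adjusted p = 0.91) and Cox8b by -1.10 ± 0.86 (adjusted p = 0.57), and neither these nor any other of the 17788 genes was called. The muscle sums of the depots do not overlap on control diet, so depot and muscle transcripts cannot be told apart there.

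Ucp1 on control diet had 0, 0.114, 0, 0.183 and 0 CPM in visceral against 1.70, 44.8, 85.2, 0.710 and 0.217 CPM in subcutaneous libraries. The groups did not overlap, although the subcutaneous libraries differed among themselves widely. With 2 counts against 622, the ratio between subcutaneous and visceral fat was 401 (counting interval 110 to 3317). Without subcutaneous control 3 it was 144 (39.4 to 1201). Kcnk3 had 53.3, 14.5, 7.25, 5.13 and 1.29 CPM in visceral against 50.5, 103, 83.3, 85.9 and 37.8 CPM in subcutaneous fat. Visceral control 1 lay inside the subcutaneous range and the other 4 visceral libraries below it (-2.13 ± 0.53, adjusted p = 0.0068). The 3 lowest of them are the tract-rich libraries, with tract sums of 12192, 31262 and 14542 CPM, against 0.309 to 9.01 CPM in control subcutaneous libraries. Without the tract-rich libraries 2 visceral control libraries remain and 2 genes were called in the whole transcriptome, none of them among the 10, with -1.08 ± 0.42 for Kcnk3 (adjusted p = 0.38). The calls of Cox7a1, Cox8b and Kcnk3 on control diet held when single libraries were left out, and without visceral control 1 Prdm16 was called as well (-0.95 ± 0.37, adjusted p = 0.043).

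**Figure D2:**
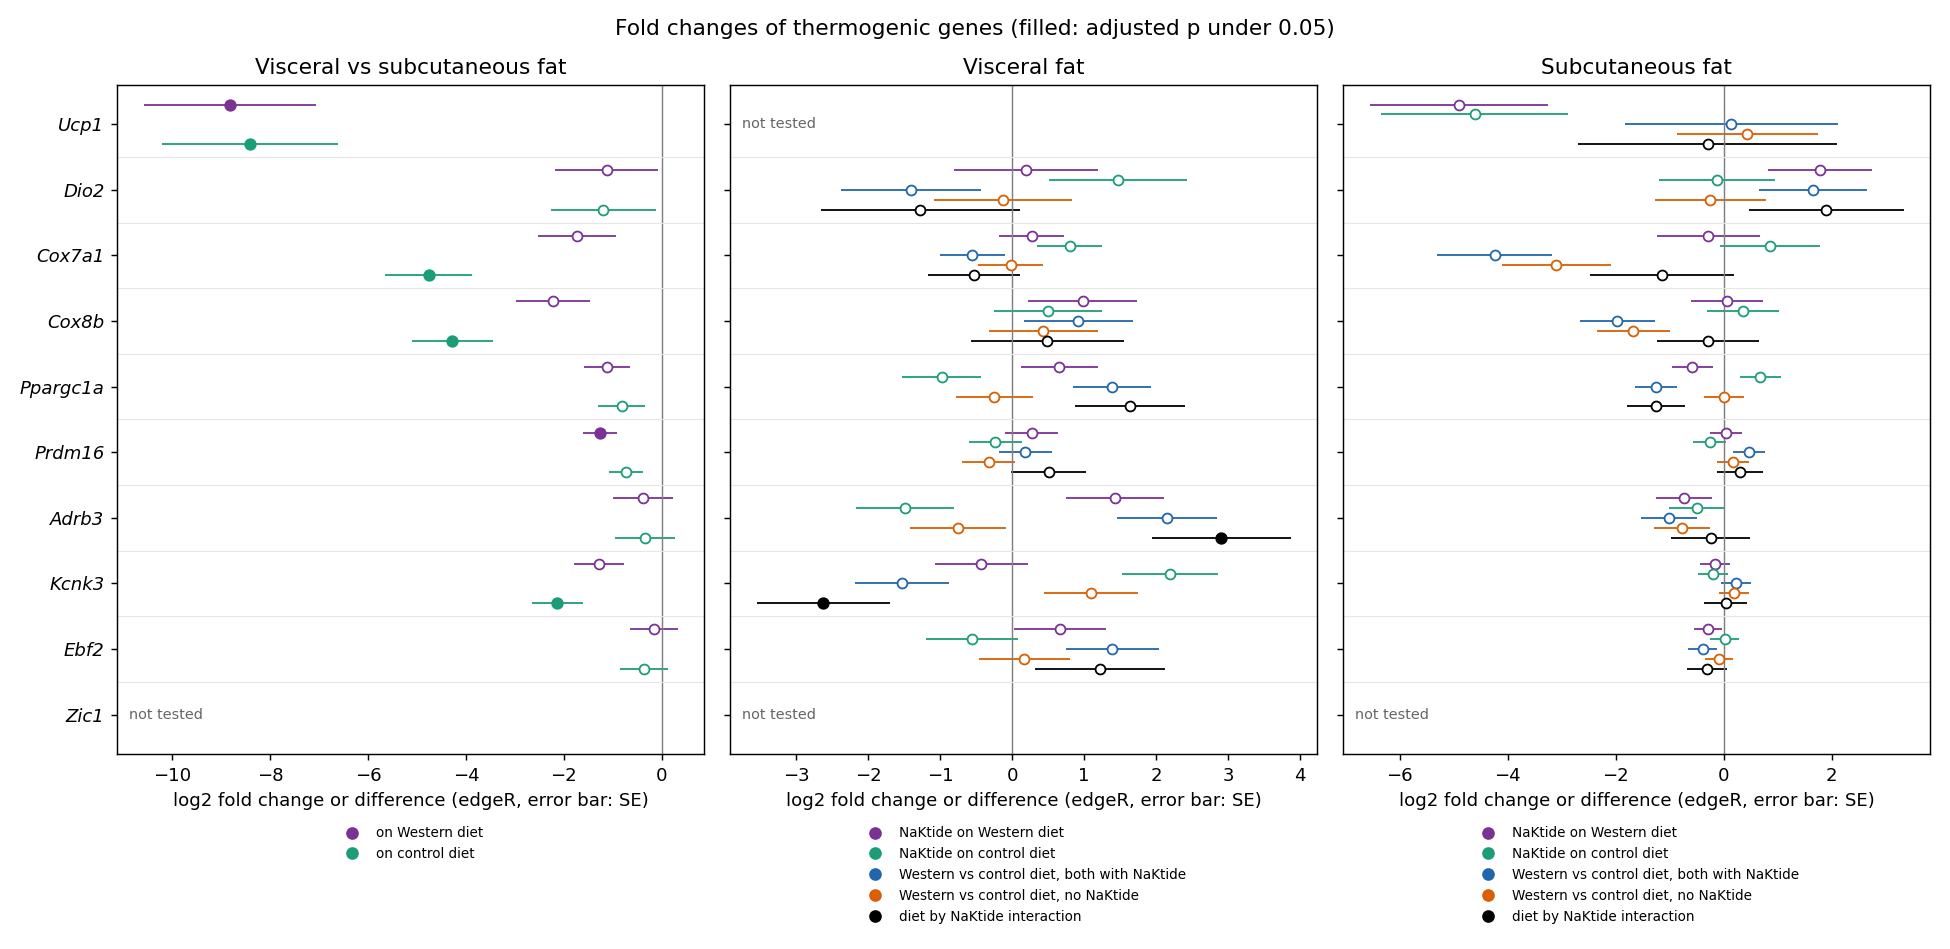
Log2 fold change of each thermogenic gene with its standard error in the 12 comparisons (edgeR, filled points at adjusted p under 0.05). In the left panel negative values are lower in visceral than in subcutaneous fat, and the middle and right panels show differences within visceral and within subcutaneous fat, where filled points are the diet by NaKtide interactions of Adrb3 and Kcnk3 in visceral fat.

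Some other genes of the programme were also called between depots. Of 18 brown adipocyte effectors 3 were called lower and 0 higher on Western diet, and 7 lower and 2 higher on control diet. Over all 17788 genes 2.08% were called and 1.05% were lower on Western diet, and 27.2% and 7.33% on control diet. Within subcutaneous and visceral fat 15 and 16 of the effectors passed the filter, so not all of them passed in both depots. Cidea, a lipid droplet protein abundant in brown fat, averaged 3.78 CPM in visceral against 62.3 CPM in subcutaneous fat on Western diet (log2 fold change -4.09 ± 0.71, adjusted p = 0.0026), and 5.80 against 84.3 CPM on control diet (-3.82 ± 0.70, adjusted p = 0.0015). S100b, a brown adipocyte factor that promotes sympathetic innervation in mice, differed by -3.13 ± 0.69 on Western diet (adjusted p = 0.013). Otop1, a proton channel found in brown fat, differed by -3.51 ± 0.65 on control diet (adjusted p = 0.0015), while Gk, glycerol kinase, was higher in visceral fat by 3.44 ± 0.73 (adjusted p = 0.0034). Gk averaged 32.3 CPM in visceral control libraries, with a standard deviation of 30.9 CPM. Among 10 tested adrenergic and cyclic AMP genes Prkaca, the catalytic subunit of protein kinase A, was lower in visceral fat by -0.66 ± 0.17 on Western (adjusted p = 0.029) and -0.70 ± 0.17 on control diet (adjusted p = 0.0058), and it was the only one called on Western diet. Of 10 tested regional markers of brown and beige fat, of which 8 passed the filter within each depot, 3 were lower on each diet and 1 was higher on control diet. Hoxc10, a homeobox gene of subcutaneous fat, differed by -6.44 ± 1.19 on Western diet (adjusted p = 0.0029), and Lhx8, a brown fat marker, by -6.35 ± 1.35 on control diet (adjusted p = 0.0034). Of 10 genes of futile creatine and calcium cycles none was called on Western diet, while on control diet 4 were higher and 2 lower, namely Ckmt2 and Atp2a1, which muscle also makes. Of these 10, 9 passed the filter within each depot. Alpl and Gamt, both higher, averaged 158 and 194 CPM in visceral control, with standard deviations of 156 and 171 CPM. Visceral control 3, 4 and 5 are tract-rich, and without the tract-rich libraries 2 genes of the whole transcriptome were called on control diet. The part of tract and muscle transcripts in the control-diet calls of these lists was not tested.

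Within subcutaneous fat the question is whether diet or NaKtide moved the programme, and no thermogenic gene passed the edgeR test in any of the 5 comparisons. For Western against control diet 0 of 9 were called, against 5.61% of 15226 genes, with 2 at an unadjusted p under 0.05 and 1, Cox7a1, called by DESeq2. For Western + NaKtide against Western 0 of 9 were called, against 0% of genes, with 1 at an unadjusted p under 0.05 and 0 by DESeq2. The same held for control + NaKtide against control, with 0 called against 0% of genes, 1 at an unadjusted p under 0.05 and 0 by DESeq2. For Western + NaKtide against control + NaKtide 0 were called against 0% of genes, with 3 at an unadjusted p under 0.05, and DESeq2 called the same 3, Cox7a1, Cox8b and Ppargc1a. For the interaction of diet and NaKtide 0 were called against 0% of genes, with 1 at an unadjusted p under 0.05 and 0 by DESeq2. Without the library labelled subcutaneous Western + NaKtide 1 none of the 9 was called either, and the smallest adjusted p in the 3 comparisons that use it was 0.13, for Cox7a1 in Western + NaKtide against control + NaKtide (-4.17 ± 1.19). The median log2 fold change of the 9 genes was -0.08 for Western against control, beside -0.02 over all genes, -0.28 for NaKtide on Western diet, beside 0.03, and -0.12 for NaKtide on control diet, beside 0.05. It was -0.39 for Western + NaKtide against control + NaKtide, beside -0.00095 over all genes, and -0.30 for the interaction, beside -0.02.

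Ucp1 varied widely within groups and was not called. It had 0.953, 0, 1.23, 1.96 and 1.80 CPM in Western + NaKtide, against 8.92, 2.37, 2.37, 0.398 and 170.2 CPM in Western libraries. It had 4.43, 0, 0, 0 and 0.175 CPM in control + NaKtide, against 1.70, 44.8, 85.2, 0.710 and 0.217 CPM in control libraries. The highest library of either NaKtide group was 4.43 CPM, whereas 3 libraries without NaKtide had 44.8 to 170.2 CPM, and all groups overlapped. Fitted log2 fold changes were -4.90 ± 1.65 for NaKtide on Western diet (adjusted p = 0.23) and -4.61 ± 1.73 on control diet (adjusted p = 0.79), and single libraries set their size. For Western against control diet the difference was 0.44 ± 1.31 (adjusted p = 0.86), with a confidence interval of -2.12 to 3.00. Without the library labelled subcutaneous Western + NaKtide 1, NaKtide on Western diet gave -4.85 ± 1.85 (adjusted p = 0.31).

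Cox7a1 and Cox8b were low in both Western groups and high in most control-diet libraries. Cox7a1 had 9.80, 10.4, 17.7, 6.37 and 18.7 CPM in Western + NaKtide and 8.36, 10.9, 8.58, 11.4 and 38.9 CPM in Western libraries. It had 66.3, 962, 6.12, 15.8 and 84.4 CPM in control + NaKtide and 51.6, 180.0, 274, 33.2 and 119 CPM in control libraries. Western 5 lay above control 4, so even the Western and control groups overlapped. The log2 fold change was -3.10 ± 1.01 for Western against control (adjusted p = 0.073) and -4.24 ± 1.06 for the same diets with NaKtide (adjusted p = 0.06). Cox8b had 43.3, 82.1, 114, 52.6 and 136 CPM in Western + NaKtide and 98.6, 59.0, 45.9, 46.5 and 165 CPM in Western libraries, and 193, 1072, 46.7, 111 and 171 CPM in control + NaKtide and 105, 388, 487, 113 and 204 CPM in control libraries, so these groups overlapped too. Its log2 fold change was -1.67 ± 0.68 (adjusted p = 0.15), and -1.97 ± 0.69 with NaKtide on both diets (adjusted p = 0.11).

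Muscle transcripts differed between the same groups. Of the 15 muscle genes all 15 were called lower in Western than in control subcutaneous fat, at sums of 130.1, 89.5, 109.9, 270.4 and 105 CPM against 16232, 54342, 62097, 8466 and 48098 CPM. Control + NaKtide 2, with 962 CPM of Cox7a1 and 1072 CPM of Cox8b, had the highest muscle sum of all, 250490 CPM. Control + NaKtide 3, with 6.12 and 46.7 CPM, had 125 CPM of muscle genes, near the Western libraries. With the log2 muscle sum as a covariate the difference between Western and control was 1.54 ± 1.07 for Cox7a1 (adjusted p = 0.57) and 1.16 ± 0.78 for Cox8b (adjusted p = 0.56), of the opposite sign, and 1 of all 15226 genes was called. The muscle sums of Western libraries end at 270.4 CPM and those of control libraries begin at 8466 CPM, so diet and muscle transcripts cannot be told apart here. Among libraries with little muscle signal the 2 genes still varied, since Western 5 had 38.9 CPM of Cox7a1 and 165 CPM of Cox8b at a muscle sum of 105 CPM. That same library had the highest Ucp1 of the 40 libraries, 170.2 CPM.

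Leaving out single libraries changed some of these calls. Cox7a1 was called for Western against control without control 4 (-3.33 ± 1.02, adjusted p = 0.049). For Western + NaKtide against control + NaKtide, leaving out control + NaKtide 3, the library with the least muscle in its group, gave -4.55 ± 0.95 for Cox7a1 (adjusted p = 0.013), -2.24 ± 0.65 for Cox8b (adjusted p = 0.035) and -1.42 ± 0.39 for Ppargc1a (adjusted p = 0.03). Without control + NaKtide 4 Cox7a1 had -4.53 ± 1.01 (adjusted p = 0.046).

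**Figure D3:**
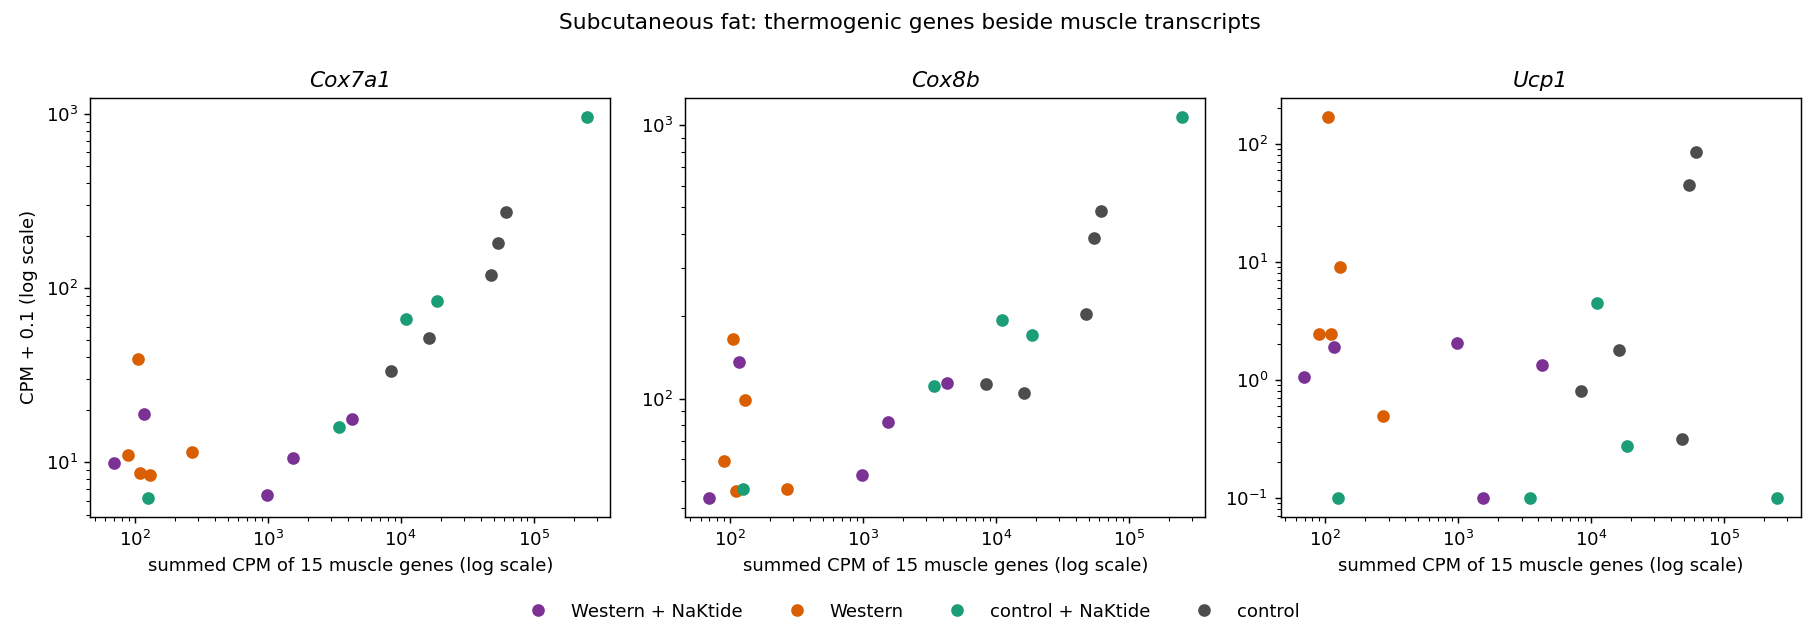
Cox7a1, Cox8b and Ucp1 in the 20 subcutaneous libraries (CPM + 0.1, log axis) against the summed CPM of 15 muscle genes (log axis), coloured by group. The libraries with the most muscle signal had the most Cox7a1 and Cox8b, while the highest Ucp1 value, 170.2 CPM, came with a muscle sum of 105 CPM.

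The receptor, the channel and the regulators passed no test in subcutaneous fat. Adrb3, the receptor, had 204, 180.0, 135, 39.7 and 119 CPM in Western + NaKtide, 269.8, 202, 166, 123 and 384 CPM in Western, 240.4, 127, 43.0, 401 and 535 CPM in control + NaKtide and 602, 377, 289, 184 and 458 CPM in control libraries. The group medians fall in the order control, control + NaKtide, Western, Western + NaKtide, but neighbouring groups overlap and the Western against control difference was -0.76 ± 0.52 (adjusted p = 0.37). Kcnk3 stayed between 34.3 and 106 CPM over all 20 libraries, with differences of -0.16 ± 0.28 for NaKtide on Western diet (adjusted p = 0.88) and 0.20 ± 0.28 for Western against control diet (adjusted p = 0.69). Prdm16 stayed between 4.99 and 29.0 CPM and Ebf2 between 5.46 and 16.4 CPM, and their largest differences in the 5 comparisons were 0.47 ± 0.30 for Prdm16 (adjusted p = 0.34) and -0.39 ± 0.27 for Ebf2 (adjusted p = 0.37), both Western + NaKtide against control + NaKtide. Ppargc1a, the coactivator, had 1.63, 5.01, 2.70, 2.45 and 3.34 CPM in Western + NaKtide and 4.75, 13.7, 3.99, 8.72 and 5.78 CPM in control + NaKtide, where Western + NaKtide 2 overlapped the other group (-1.25 ± 0.39, adjusted p = 0.088). Its highest value, 13.7 CPM, belongs to control + NaKtide 2, which had a muscle sum of 250490 CPM. With the log2 muscle sum as a covariate the difference was -0.72 ± 0.39 (adjusted p = 0.69). The interaction of diet and NaKtide for Ppargc1a was -1.26 ± 0.54 (unadjusted p = 0.0298, adjusted p = 0.39), and -1.80 ± 0.52 with that covariate (adjusted p = 0.16). Dio2, the deiodinase, reached 17.1 CPM in Western + NaKtide 4 and 0 to 5.41 CPM in the other 19 libraries, and NaKtide on Western diet gave 1.78 ± 0.96 (adjusted p = 0.48). Western + NaKtide 4 also had the highest subcutaneous sums of 8 neural genes, 211 CPM, and of the tract genes, 233 CPM. Their part in the Dio2 value was not tested.

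In other thermogenic lists the diet contrast in subcutaneous fat moved single genes, where 5.61% of all 15226 genes were called. Of 15 tested brown adipocyte effectors Gk, whose product lets adipocytes reuse glycerol, rose on Western diet by 1.42 ± 0.31 (adjusted p = 0.016), and Otop1 rose by 1.88 ± 0.54 (adjusted p = 0.048), with 0 lower. Fgf21, a hormone of fasting and thermogenesis, rose by 1.75 ± 0.43 (adjusted p = 0.025) and was the only call among 8 tested batokines, the hormones brown fat releases. Ckmt2 differed by -10.44 ± 2.16 (adjusted p = 0.013), Atp2a1 by -9.69 ± 2.35 (adjusted p = 0.023) and Cox6a2 by -8.84 ± 1.71 (adjusted p = 0.013), and all 3 are also muscle genes, whose transcripts fell beside them as given above. Cox6a2 was the only call among 13 cytochrome c oxidase subunits of the nuclear genome. None of the 10 adrenergic and cyclic AMP genes or of the 17 transcriptional regulators tested was called by edgeR, with 3 and 1 at an unadjusted p under 0.05. Of 8 tested genes in the list of regional markers the only call was Eva1a (-1.20 ± 0.34, adjusted p = 0.045). Its standing as a brown or beige marker is not established here. With NaKtide in the other 4 subcutaneous comparisons 0 genes of any list were called by edgeR, as in the whole table, with 0 to 9 genes of a thermogenic list at an unadjusted p under 0.05.

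Within visceral fat the difference between groups with and without NaKtide was called unlike on the 2 diets for Adrb3 and Kcnk3, in opposite directions. No other thermogenic gene was called, and both calls depended on the choice of libraries, as given below. For the interaction, in which the NaKtide difference of the control-diet groups is subtracted from that of the Western-diet groups, 1 of 8 tested genes was higher and 1 lower. This share is no higher than the background, since 32.2% of 17235 genes were called, so the calls set neither gene apart from the rest of the transcriptome. The median of the 8 was 0.50, beside 0.30 over all genes. In the 4 pairwise comparisons edgeR called 0 of the 8. All genes were called at 13.2% for Western + NaKtide against Western, 7.15% for control + NaKtide against control, 4.82% for Western + NaKtide against control + NaKtide and 24.9% for Western against control. At an unadjusted p under 0.05 there were 0, 2, 4 and 0 of the 8 in these comparisons, and DESeq2 called 0, 1, 1 and 0. The median log2 fold changes of the 8 genes, in the same order, were 0.46, 0.13, 0.55 and -0.08, beside 0.03, -0.23, 0.04 and -0.22 over all genes.

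Adrb3 had 707, 560.0, 448, 580.4 and 96.2 CPM in Western + NaKtide, against 124, 229, 177, 174 and 208 CPM in Western visceral fat. It had 68.7, 129, 130.4, 68.3 and 147 CPM in control + NaKtide, against 497, 664, 229.9, 90.0 and 8.06 CPM in control. On Western diet 4 of the 5 NaKtide libraries lay above all Western ones, and on control diet the NaKtide libraries lay inside the wide control range. The difference was 1.42 ± 0.68 on Western diet (adjusted p = 0.15) and -1.48 ± 0.68 on control diet (adjusted p = 0.18), and the interaction was 2.91 ± 0.96 (adjusted p = 0.029). The lowest libraries of the Western + NaKtide and control groups, Western + NaKtide 5 at 96.2 CPM and control 3, 4 and 5 at 229.9, 90.0 and 8.06 CPM, are tract-rich, with tract sums of 36981, 12192, 31262 and 14542 CPM. Their 10 adipocyte genes summed to 10437, 14524, 8830.3 and 928 CPM, against 19973 to 34691 CPM in the visceral libraries poor in tract genes. The other 2 tract-rich libraries lay in different places for Adrb3 within their groups. Western + NaKtide 2 had 560.0 CPM of Adrb3 at a tract sum of 2538 CPM and an adipocyte sum of 24633 CPM. Control + NaKtide 1 had 68.7 CPM at a tract sum of 6662 CPM and an adipocyte sum of 14603 CPM, near the lowest of its group. Control + NaKtide 4, which is poor in tract genes, had 68.3 CPM of Adrb3, and the rest of that group had 129 to 147 CPM.

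Without the 6 tract-rich libraries the remaining Adrb3 values fall into a higher and a lower range. Western + NaKtide 1, 3 and 4 at 448 to 707 CPM and control 1 and 2 at 497 and 664 CPM were then high, and Western at 124 to 229 CPM and control + NaKtide 2 to 5 at 68.3 to 147 CPM were low. Visceral fits without the tract-rich libraries thus keep only 2 control libraries and drop the control libraries lowest in Adrb3. Control 1 of these also had the highest sum of 8 neural genes in visceral fat, 392 CPM. In the fit without the 6 tract-rich libraries Adrb3 rose with NaKtide on Western diet by 1.70 ± 0.24 (adjusted p = 0.00057) and fell with NaKtide on control diet by 2.32 ± 0.28 (adjusted p = 0.00076). It fell on Western against control diet by 1.70 ± 0.27 (adjusted p = 0.0018), and the interaction was 4.02 ± 0.37 (adjusted p = 2.2e-05). Leaving out also the library labelled visceral Western + NaKtide 1, a choice made after seeing the data, gave 1.53 ± 0.27 on Western diet (adjusted p = 0.0039) and an interaction of 3.85 ± 0.39 (adjusted p = 6.9e-05). With the log2 adipocyte sum as a covariate over all 20 libraries, also added after seeing the data, the interaction was 3.08 ± 0.33 (adjusted p = 4.2e-06). With all libraries but 1, the adjusted p ran from 0.003 to 0.068 and passed 0.05 without Western + NaKtide 1 (2.67 ± 1.01, adjusted p = 0.054), Western 3, 4 or 5, control + NaKtide 4, or control 1 or 2. Without control 5 the fall with NaKtide on control diet was called (-1.77 ± 0.51, adjusted p = 0.038).

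Kcnk3, the potassium channel, was highest with NaKtide on control diet. It had 52.0, 10.7, 28.6, 30.9 and 8.20 CPM in Western + NaKtide, against 20.5, 44.6, 39.0, 35.4 and 40.5 CPM in Western libraries. It had 43.0, 84.2, 75.1, 82.9 and 95.6 CPM in control + NaKtide, against 53.3, 14.5, 7.25, 5.13 and 1.29 CPM in control libraries. On control diet 4 of 5 NaKtide libraries lay above every control library, and on Western diet the groups overlapped widely. The difference was 2.19 ± 0.67 on control diet (adjusted p = 0.054), -0.43 ± 0.64 on Western diet (adjusted p = 0.69), and the interaction -2.62 ± 0.92 (adjusted p = 0.038). Control 1 stood apart, with 53.3 CPM of Kcnk3, and it also had 24.4 CPM of Hoxc10, a gene at 0 to 11.0 CPM in the other visceral libraries. Without control 1 Kcnk3 was called higher for NaKtide on control diet (3.42 ± 0.59, adjusted p = 0.0029) and for Western against control (2.31 ± 0.56, adjusted p = 0.011). Without control + NaKtide 1 the first of these had 2.34 ± 0.71 (adjusted p = 0.038).

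The Kcnk3 interaction depended on the choice of libraries and genes. Without the filter on low counts neither interaction was called, at an adjusted p of 0.073 for Kcnk3 and 0.052 for Adrb3. The Kcnk3 interaction was -1.21 ± 0.54 without the 6 tract-rich libraries (adjusted p = 0.13), -1.54 ± 0.56 without these and the library labelled Western + NaKtide 1 (adjusted p = 0.068), and -2.46 ± 0.51 with the adipocyte covariate (adjusted p = 0.0017). Leaving out single libraries ended the call in 14 of 20 cases, at adjusted p between 0.0016 and 0.07 over all 20. It held without the library labelled Western + NaKtide 1 (-3.07 ± 0.96, adjusted p = 0.026) and without Western + NaKtide 3, Western 1, control + NaKtide 1, or control 1 or 5. The 8 macrophage genes differed between the same groups. They summed to 440.4 to 1529.8 CPM in Western + NaKtide and 1703 to 3853 CPM in Western visceral fat, and to 1892 to 2909.7 CPM in control + NaKtide and 160.3 to 778 CPM in control. All 8 were called lower with NaKtide on Western diet and all 8 higher with NaKtide on control diet, and their part in the results for Kcnk3 and Adrb3 was not tested.

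**Figure D4:**
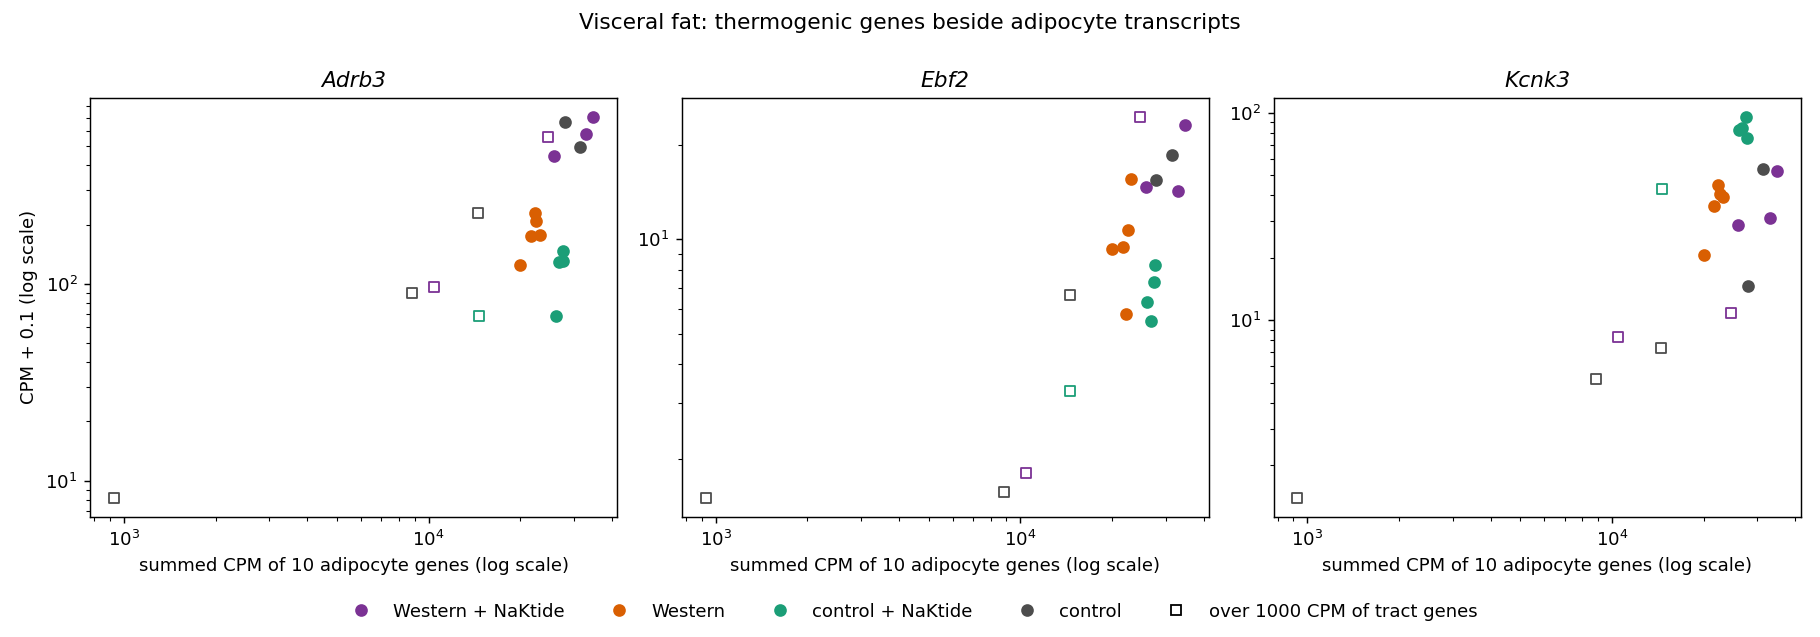
Adrb3, Ebf2 and Kcnk3 in the 20 visceral libraries (CPM + 0.1, log axis) against the summed CPM of 10 adipocyte genes (log axis), coloured by group. Open squares are the 6 libraries with over 1000 CPM of tract genes, which include the 4 lowest adipocyte sums of 928 to 14524 CPM, and among the filled points Adrb3 lay at 448 to 707 CPM in Western + NaKtide and control and at 68.3 to 229 CPM in the other groups.

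Ebf2, which marks precursors of brown and beige adipocytes, was not called over all libraries. It had 23.1, 24.5, 14.6, 14.2 and 1.70 CPM in Western + NaKtide and 9.24, 5.66, 15.5, 9.35 and 10.6 CPM in Western libraries, and 3.18, 5.39, 8.17, 6.22 and 7.23 CPM in control + NaKtide and 18.5, 15.4, 6.54, 1.47 and 1.40 CPM in control libraries. All groups overlapped, and over all libraries the interaction was 1.22 ± 0.90 (adjusted p = 0.32). Without the tract-rich libraries it was 2.17 ± 0.41 (adjusted p = 0.002), with 0.81 ± 0.26 for NaKtide on Western diet (adjusted p = 0.045) and -1.36 ± 0.31 on control diet (adjusted p = 0.015). Without these and the library labelled Western + NaKtide 1 the interaction was 1.91 ± 0.41 (adjusted p = 0.0057), but NaKtide on Western diet was no longer called (0.56 ± 0.29, adjusted p = 0.21). Ppargc1a had 7.02, 4.02, 2.70, 2.44 and 0.566 CPM in Western + NaKtide, against 1.02, 0.858, 1.02, 2.67 and 0.903 CPM in control + NaKtide. The groups overlapped, and the difference of 1.38 ± 0.55 missed the threshold (unadjusted p = 0.0207, adjusted p = 0.18). Its highest value, 7.02 CPM, belongs to the library labelled Western + NaKtide 1, without which the difference was 0.90 ± 0.55 (adjusted p = 0.43).

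The remaining genes passed no test or were too low to test in visceral fat. Prdm16 lay between 3.57 and 15.1 CPM, and its differences ran from -0.32 ± 0.37 for Western against control (adjusted p = 0.5) to 0.51 ± 0.52 for the interaction (adjusted p = 0.48). Cox7a1 lay between 1.50 and 10.5 CPM, with 0.80 ± 0.45 for NaKtide on control diet (adjusted p = 0.24). Cox8b had 86.6, 16.2, 9.73, 51.1 and 15.6 CPM in Western + NaKtide and 5.79, 42.6, 14.7, 15.1 and 14.6 CPM in Western visceral fat, and the difference of 0.98 ± 0.76 (adjusted p = 0.38) shrank to 0.32 ± 0.77 (adjusted p = 0.82) without the library labelled Western + NaKtide 1. Dio2 had 1.02 to 2.92 CPM in control + NaKtide and 0 to 1.93 CPM in control, a difference of 1.47 ± 0.96 (adjusted p = 0.3). Ucp1 was not tested, as 6 of the 20 visceral libraries had 0 counts and the highest 5. Its counts summed to 9 in Western + NaKtide and 3 in Western, a ratio of 4.36 (counting interval 1.09 to 25.0), and to 12 in control + NaKtide and 2 in control, a ratio of 5.29 (1.18 to 48.6). These intervals hold counting error only, and 5 of the 9 counts come from the library labelled Western + NaKtide 1.

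Mitochondrial and regulatory genes outside the 10 also differed with NaKtide in visceral fat. Of 13 nuclear cytochrome c oxidase subunits 8 were higher and 0 lower with NaKtide on Western diet, and for the interaction 9 were higher and 1 lower. All genes were called at 13.2% and 32.2% in these comparisons, and at 7.15% for NaKtide on control diet. Cox4i1 rose with NaKtide on Western diet by 1.14 ± 0.28 (842.8 against 392 CPM, adjusted p = 0.014), and Cox7a2, the ubiquitous partner form of Cox7a1, rose by 0.91 ± 0.24 (adjusted p = 0.021). Tfam, which maintains mitochondrial DNA, rose by 0.78 ± 0.24 on Western diet (adjusted p = 0.04) and was the only regulator of 17 called. Among 16 brown adipocyte effectors Otop1 and Acot11, a thioesterase of brown fat, fell with NaKtide on Western diet, at log2 fold changes of -4.55 ± 0.71 (adjusted p = 0.00076) and -1.69 ± 0.42 (adjusted p = 0.016), with 0 higher. Otop1 rose with NaKtide on control diet by 3.83 ± 0.67 (adjusted p = 0.002), and Ryr2, a calcium release channel, moved the same way, with -4.12 ± 0.64 on Western (adjusted p = 0.00079) and 3.83 ± 0.63 on control diet (adjusted p = 0.0013). Plin5, a lipid droplet protein tied to mitochondria, fell on control diet, at -2.05 ± 0.34 (adjusted p = 0.0014) and its interaction was 2.27 ± 0.47 (adjusted p = 0.0019). Fgf21 fell with NaKtide on Western diet by 1.74 ± 0.41 (adjusted p = 0.012), and among 10 adrenergic and cyclic AMP genes none was called by edgeR with NaKtide on either diet, with 1 each at an unadjusted p under 0.05. Without the library labelled Western + NaKtide 1, 5 of the 13 subunits were higher and 0 lower with NaKtide on Western diet, and 7 were higher and 1 lower for the interaction. Tfam was then no longer called on Western diet (0.78 ± 0.26, adjusted p = 0.057), while Cox4i1 (adjusted p = 0.026), Cox7a2 (adjusted p = 0.04), Otop1 (adjusted p = 0.0011), Acot11 (adjusted p = 0.034), Ryr2 (adjusted p = 0.0035) and Fgf21 (adjusted p = 0.011) were, with the same signs, as was the Plin5 interaction (adjusted p = 0.0059). The macrophage and tract sums given above differ between the same groups, and their part in these values was not tested.

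For each gene the genes with the most similar profile over the 20 libraries of a depot were listed by Spearman's rho of log2 CPM, as a description, since the libraries share groups, depth and composition. In subcutaneous fat Cox7a1 was closest to Coq10a (0.941), and Cox8b to Uqcrfs1 (0.943) and Ndufa10 (0.941), with Sdhb near both (0.922 and 0.934). Ucp1 had no close companion there, its highest being Acot11 at 0.743, and Prdm16 was nearest to Adamts6 (0.856). In visceral fat Adrb3 was closest to Vnn3 (0.928) and Mogat1 (0.922), with Pnpla2, the adipose triglyceride lipase, at 0.914. Kcnk3 was closest to Ccl11 (0.955) and Dglucy (0.935), and Ebf2 to Gm45470 (0.967) and Acss3 (0.953). Gm45470 is the antisense gene that shares 839 exon bases with Adrb3. Gm9899, which shares 229 exon bases with Kcnk3 on the opposite strand, was also among the genes closest to Kcnk3 (0.905). Reads in those bases may belong to either gene.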

How the data were processed

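RNA-seq reads were trimmed with Trimmomatic 0.38 and aligned to GRCm38 with HISAT2 2.1.0, and DESeq2 1.20.0 was used, per the submitters' processing notes. The counting program, its strand setting and its annotation are not stated in those notes or the labels. The authors deposited whole-number counts per gene, used for every test, and FPKM values per gene, scaled for depth and length, used only to compare levels between genes; a normalized table was not used. Counts were fitted with edgeR 4.0.16 (R 4.3.3, limma 3.58.1), with TMM scaling, the quasi-likelihood test and Benjamini-Hochberg adjustment over all genes kept by filterByExpr, at an adjusted p under 0.05. A model was fitted for each depot (20 libraries, 4 groups), with 15226 genes in subcutaneous and 17235 in visceral fat, and another over all 40 libraries for the depot contrasts (17788 genes). Zic1 was removed by the filter in all fits and Ucp1 in visceral fat, where the 0 counts allow up to 3 counts per library. CPM values use TMM sizes over the 40 libraries, and log2 CPM a prior count of 2. Ratios of summed counts have exact 95% intervals that cover counting error only. Alternatives were DESeq2 1.42.0, other scaling, no filter, 2 groups alone, a replicate block, a muscle covariate, leaving out single, muscle-rich or tract-rich libraries, and, chosen after seeing the data, an adipocyte covariate and leaving out also the library below 10 CPM of mesothelial genes. The edgeR fit was tested on simulated counts. All 80 pairs of libraries of a group differed by more than sampling noise. The 10 genes and all lists were chosen with earlier results of these data known. Of other lists, up to 2 higher and 2 lower genes with the smallest p per comparison could be named, with 9 comparator genes and the 5 most similar genes per member and depot. The genes that check the depot labels were chosen after their values were seen.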

Additional observations from a re-analysis of the deposited data

Results flagged for a closer look

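Of 70 groups of 5 libraries, 13 held a library that stood apart from the other 4 by Dixon's test on CPM. Chance gives about 3.5 only for independent values with a normal spread. CPM values need not have such a spread, so the 13 cannot be read as an excess over chance. In subcutaneous fat these were Ucp1 in Western 5 (170.2 CPM) and in control + NaKtide 1 (4.43 CPM), and Dio2 in Western + NaKtide 4 (17.1 CPM) and in control 3 (5.41 CPM). Cox7a1 stood apart in Western 5 (38.9 CPM) and in control + NaKtide 2 (962 CPM), Cox8b in control + NaKtide 2 (1072 CPM) and Ppargc1a in control 3 (9.08 CPM). Western 5 was thus high for both Ucp1 and Cox7a1. In visceral fat the libraries were Western + NaKtide 4 for Dio2 (2.44 CPM), Western 2 for Cox8b (42.6 CPM) and, as a low value, for Prdm16 (3.57 CPM), control + NaKtide 4 for Ppargc1a (2.67 CPM) and control 1 for Kcnk3 (53.3 CPM).

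In visceral fat edgeR's test of the interaction called Adrb3, at 2.91 on the log2 scale (adjusted p = 0.029), and Kcnk3, at -2.62 (adjusted p = 0.038). The difference between groups with and without NaKtide thus varied with diet in the main fit. Leaving out single libraries ended the call in 7 of 20 cases for Adrb3 and in 14 of 20 for Kcnk3. The values by library are given above, and the part of tract, adipocyte and macrophage transcripts in these differences was not tested beyond the fits named there.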

How the results depend on the processing

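Counts here are thermogenic genes called, with the share of all tested genes called by the same fit in brackets. Ucp1, which is given between depots as a description, is left out there. DESeq2 gave 1 for Western against control (10.1%) and 3 for Western + NaKtide against control + NaKtide (7.02%) in subcutaneous fat, and in visceral fat 1 for control + NaKtide against control (14.2%) and 1 for Western + NaKtide against control + NaKtide (7.80%). Fits of the 2 groups alone gave 2 for Western against control in subcutaneous fat (14.6%), 1 for Western + NaKtide against Western (16%) and 1 against control + NaKtide (7.87%) in visceral fat, and 4 on Western (16.2%) and 2 on control diet (2.14%) between depots. Without the low-count filter the visceral interaction had 0 (12.5%), and none was called between depots on Western diet (0.348%). Leaving out muscle-rich libraries also gave none there (1.28%). The muscle covariate gave 0 between depots on control diet (0%). Without tract-rich libraries visceral Western against control had 1 (14%), Western + NaKtide against Western 2 (20.1%), control + NaKtide against control 2 (10.7%) and Western + NaKtide against control + NaKtide 2 (12.2%). Between depots Cox8b, Prdm16 and Kcnk3 were then called on Western diet (13.3%) and 0 on control diet (0.011%). Leaving out the depot-discordant library as well gave 1 (15.2%), 1 (15%), 2 (11.9%) and 2 (8.09%) in the same 4 visceral comparisons. The adipocyte covariate gave 1 (17.6%), 1 (23.9%), 2 (9.28%) and 2 (11.1%) there, and 2 for subcutaneous Western against control (23.6%).

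Leaving out each library in turn gave 0 to 1 for Western against control in either depot and for visceral control + NaKtide against control. It gave 0 to 3 for subcutaneous Western + NaKtide against control + NaKtide, 0 to 2 for the visceral interaction, and 0 in the remaining comparisons within a depot. Between depots on Western diet Prdm16 was called in none of these fits, and Cox8b only without visceral Western 2. On control diet Cox7a1, Cox8b and Kcnk3 were called in each, and Prdm16 also without visceral control 1. Over all genes the same fits called 200 to 1413 for subcutaneous and 1570 to 5091 for visceral Western against control, 628 to 3115 for visceral control + NaKtide against control, 0 to 1860 for subcutaneous Western + NaKtide against control + NaKtide, 3860 to 6454 for the visceral interaction, and between depots 101 to 1299 on Western and 1740 to 6694 on control diet. The cause was not tested where a call changed.

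Replicate numbers gave no clear pairing between groups of a depot, where deviations of same-numbered libraries correlated above 0.1 in 9 of 30 subcutaneous and 10 of 30 visceral pairs. Their medians were 0.02 and -0.20, beside -0.01 and 0.08 for other pairs. Between depots in the same group 2 of 20 same-numbered pairs passed 0.1, at a median of -0.02, beside 0.02 for other pairs. These values cannot show whether both depots came from the same mice, and the depot contrasts were fitted without pairing. With the replicate block the visceral interaction had 1 of the genes (23.3% of all), Kcnk3 (adjusted p = 0.025, and 0.12 for Adrb3 at 2.32 ± 1.10), and visceral control + NaKtide against control had 1 (5.69% of all), Kcnk3.

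Over 1969 values of single genes under alternatives, 1867 kept their side of the threshold, 49 lost and 53 gained a call, and no call changed sign. The main fits called 8 of 103 tests, those of Ucp1 between depots among them, so most of the kept values were without a call. Of the uncalled values 131 changed sign. Leaving out muscle-rich libraries was not run for 5 comparisons, where it leaves under 2 libraries in a group. At 3485216 to 9784337 counts per library, Ucp1 in visceral fat and Zic1 are below what can be compared.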

Other observations

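Cidea, the lipid droplet protein of brown fat, varied within visceral fat. It had 33.7, 2.28, 5.16, 18.0 and 6.79 CPM in Western + NaKtide, against 3.90, 5.29, 3.37, 2.36 and 3.96 CPM in Western libraries. It had 2.16, 4.17, 2.92, 1.78 and 2.84 CPM in control + NaKtide, against 14.9, 4.00, 2.48, 4.22 and 3.44 CPM in control libraries. Its interaction of diet and NaKtide was 2.93 ± 0.84 (edgeR adjusted p = 0.015), and 2.16 ± 0.76 (adjusted p = 0.04) without the library labelled Western + NaKtide 1, which holds the highest value. The library labelled subcutaneous Western + NaKtide 1 had 8.57 CPM, against 25.0 to 109 CPM in the other 4 of its group. Whether these libraries were exchanged was not tested.

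Among the other uncoupling proteins, Ucp3 was lower in visceral than in subcutaneous fat on control diet by -1.37 ± 0.52 on the log2 scale (adjusted p = 0.047), and differed by -1.80 ± 0.53 on Western diet (adjusted p = 0.058). Ucp3 is also a muscle gene, and on control diet the 15 muscle genes summed to 46.5 to 218 CPM in visceral and 8466 to 62097 CPM in subcutaneous fat, so depot and muscle transcripts cannot be told apart for it. Per length, Ucp2 had a median of 57.5 FPKM in visceral and 23.5 FPKM in subcutaneous fat, against 0.0602 and 0.717 FPKM for Ucp1.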
